A study of Mus musculus with 20 samples.

Results

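Metabotropic glutamate receptors are G protein-coupled receptors for glutamate, and the 6 genes described here are Grm2, Grm3, Grm4, Grm5, Grm7 and Grm8. They were chosen by name, with earlier results of these data known. They are 6 of the 32962 named genes into which the deposited mouse transcripts were summed. The authors quantified 25 RefSeq transcripts for them, out of 107185. The study compared morphine with vehicle in trigeminal ganglia (TG), the sensory ganglia of the face and head, and in the nucleus accumbens (NAc), a part of the ventral striatum. The 4 groups were TG of morphine mice, TG of vehicle mice, NAc of morphine mice and NAc of vehicle mice, with 5 RNA-seq libraries in each. Both tissues came from the same 10 male C57BL/6J mice, aged 9 to 12 weeks and sampled 24 h after their last injection; the sample labels call the morphine mice OIH, and no genotype or other agent is named for either treatment.

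The family falls into groups by sequence, ligand preference and G protein. Group I, which includes Grm5, couples to Gq and phospholipase C, sits mainly around the edge of postsynaptic sites and is tethered there by Homer and Shank proteins. Group II (Grm2 and Grm3) and group III (Grm4, Grm6, Grm7 and Grm8) couple to Gi/o, lower cyclic AMP and act in large part on presynaptic endings, where they limit transmitter release. In the striatum mGlu5 is known as a receptor of medium spiny neurons and mGlu3 also as a receptor of astrocytes, whereas mGlu2 of cortical and thalamic afferents is made from messenger RNA in those distant cell bodies. In sensory neurons group II and III receptors are known for reducing nociceptor activity. Grm6 was not among the 6 genes. In the RefSeq annotation of GRCm38.p6 the genes lie on chromosome 9 at 106644534 to 106656109 (Grm2, gene ID 108068), chromosome 5 at 9485236 to 9725352 (Grm3, 108069), chromosome 17 at 27422387 to 27513826 (Grm4, 268934) and chromosome 7 at 87583981 to 88135063 (Grm5, 108071). Grm7 (108073) and Grm8 (14823) lie on chromosome 6, at 110645349 to 111567230 and at 27275121 to 28135146. The files hold 1 transcript each of Grm2 and Grm3, 5 of Grm4, 4 of Grm5, 9 of Grm7 and 5 of Grm8.

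Summed counts were 61285916 to 76110288 in TG libraries and 52402037 to 64357778 in NAc libraries, and the 6 genes were covered by at least 85 counts in every library. The 8 sensory neuron markers summed to 3270 to 3852 CPM (counts per library size, after adjusting that size by TMM factors) in TG libraries against 18.3 to 34.5 CPM in NAc libraries, and 8 medium spiny neuron markers summed to 70.9 to 79.9 CPM in TG libraries against 1628 to 5599 CPM in NAc libraries, so both tissue labels held. A pair of NAc vehicle libraries stood apart in these markers: replicate 2 had the lowest medium spiny sum (1628 CPM) and replicate 5 the highest (5599 CPM), while the morphine NAc libraries lay between 3221 and 4073 CPM. Cortical projection neuron markers also varied widely in NAc, from 49.3 to 861 CPM in morphine libraries and from 11.8 to 862 CPM in vehicle libraries. In TG, pituitary markers summed to 47.0 to 1432 CPM in morphine libraries and 19.7 to 1045 CPM in vehicle libraries. In these bulk samples fewer cells of a type and less RNA per cell cannot be told apart. Libraries of a group are from different mice.

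The sequences below are shown because the deposited transcripts of Grm5, Grm4 and Grm8 differ in them, so that the named transcripts can be told apart. Transcripts of Grm7 and predicted transcripts of Grm4 and Grm5 are named only. They come from the GENCODE M21 models (build GRCm38) that GENCODE pairs with each RefSeq transcript, read 5′ to 3′ on the gene's strand. Capitals mark the coding stretch that sets a transcript apart, and the lower-case letters are neighbouring coding bases. For Grm5 the capitals are a 96-base coding exon at chr7:88116193-88116288 on the plus strand. NM_001143834 has it, and in NM_001081414 the 2 flanks meet directly; its 32 codons are the insertion in the receptor's intracellular tail that separates mGlu5b from mGlu5a.
Grm5 NM_001143834: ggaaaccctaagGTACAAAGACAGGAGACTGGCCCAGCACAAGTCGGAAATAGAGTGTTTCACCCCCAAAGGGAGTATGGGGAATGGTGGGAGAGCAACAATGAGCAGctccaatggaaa
For Grm4 and Grm8, both on the minus strand, the capitals are the last coding bases before the stop codon, at chr17:27426787-27426833 and chr17:27422728-27422781 for Grm4 and at chr6:27275648-27275694 and chr6:27285688-27285734 for Grm8.
Grm4 NM_001291045: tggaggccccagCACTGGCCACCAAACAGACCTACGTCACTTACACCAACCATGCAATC
Grm4 NM_001013385: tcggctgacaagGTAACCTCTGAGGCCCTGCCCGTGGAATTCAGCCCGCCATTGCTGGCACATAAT
Grm8 NM_001311072: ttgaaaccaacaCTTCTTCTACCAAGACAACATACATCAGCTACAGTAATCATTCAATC
Grm8 NM_008174: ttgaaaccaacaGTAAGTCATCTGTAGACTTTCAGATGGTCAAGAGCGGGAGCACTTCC
The 2 Grm8 forms share the bases before the capitals and then end differently, so they code for different carboxy-terminal tails.

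Which receptor messages were most abundant depended on the tissue. In TG the group III genes Grm7, Grm4 and Grm8 led the 6: RPKM, the level per transcript length and library size, averaged 11.4 ± 0.504 for Grm7, 6.29 ± 0.295 for Grm4 and 5.02 ± 0.769 for Grm8 in TG of morphine mice (SD, n = 5 each). The same genes averaged 11.9 ± 0.561, 6.68 ± 0.356 and 5.08 ± 0.706 RPKM in TG of vehicle mice (SD, n = 5 each). Grm5, Grm3 and Grm2 followed in both TG groups at means between 0.446 and 0.622 RPKM, and neighbours among these low genes overlapped over libraries, except Grm3 and Grm2 in morphine TG. Grm4 and Grm8 also overlapped in morphine TG, but not in vehicle TG. In NAc the order was Grm5, Grm3, Grm7, Grm4, Grm8 and Grm2. Grm5 averaged 92.0 ± 8.61 RPKM in NAc of morphine mice and 89.8 ± 21.5 RPKM in NAc of vehicle mice, and Grm3 averaged 20.2 ± 0.923 and 23.0 ± 4.68 RPKM there (SD, n = 5 each). Grm7 (11.7 and 11.02 RPKM) and Grm4 (8.04 and 8.50 RPKM) came next in NAc of morphine and of vehicle mice and overlapped only in the vehicle libraries, and the lowest pair, Grm8 and Grm2, overlapped in both NAc groups. Of the summed RPKM of the 6 genes, Grm5 held 68.2% ± 1.89 in morphine NAc and 66.0% ± 2.42 in vehicle NAc, against 2.55% ± 0.25 in morphine TG and 2.11% ± 0.43 in vehicle TG. Grm7 held the largest share in TG, at 46.8% ± 1.23 in morphine TG and 47.3% ± 1.96 in vehicle TG (SD, n = 5 each). Lengths are those of GENCODE models, and 48.9% of the Grm4 counts and 66.6% of the Grm7 counts fell on transcripts with a model of their own. With the longest model as length, the leading 3 genes in TG and the leading 4 in NAc kept their order, whereas the low genes were ordered Grm3, Grm2, Grm5 in TG and Grm2 came before Grm8 in NAc. The levels themselves moved: Grm5 then averaged 54.1 RPKM in morphine NAc and 53.7 RPKM in vehicle NAc. Grm8 then averaged 3.38 RPKM in morphine TG and 3.43 RPKM in vehicle TG. The shares of the summed RPKM given above were not computed with the longest model.

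**Figure D1:**
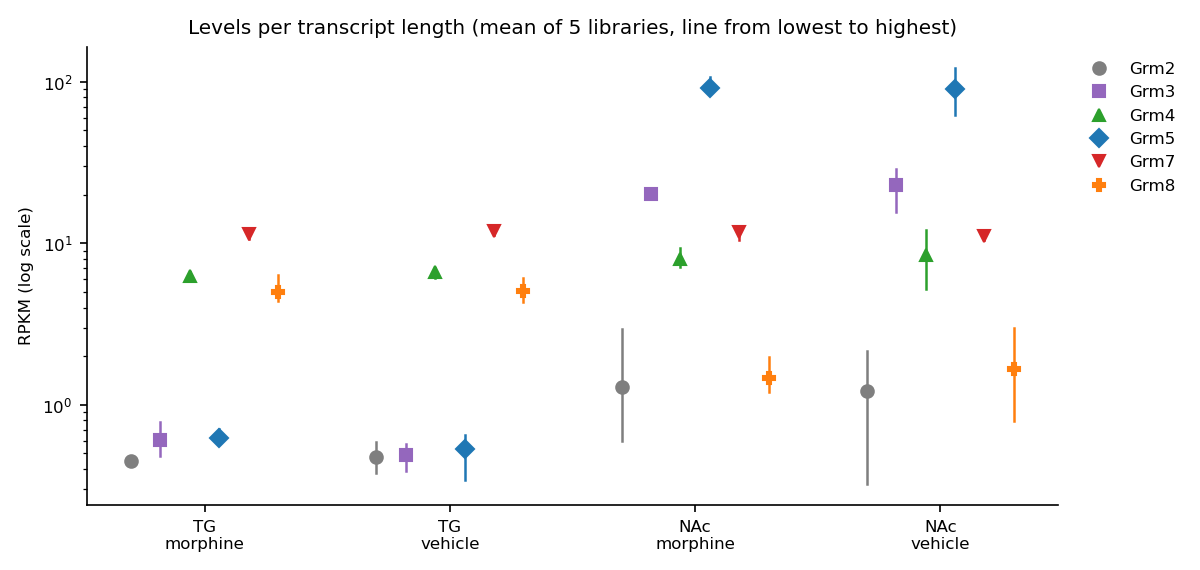
Level per transcript length (RPKM, log axis) of the 6 genes in the 4 groups; symbols are means of 5 libraries and lines run from the lowest to the highest library. Grm7, Grm4 and Grm8 lead in TG, and Grm5 and Grm3 lead in NAc, where Grm5 averages 92.0 RPKM in morphine and 89.8 RPKM in vehicle mice. With the longest model as length, not drawn, these Grm5 means are 54.1 and 53.7 RPKM.

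The comparison of TG with NAc asks which receptors each tissue's cells transcribe. Grm5, Grm3 and Grm2 were lower in TG and Grm8 was higher in TG, in morphine as in vehicle mice, while the TG and NAc libraries overlapped for Grm4 and Grm7 and neither passed the test. These 4 of 6 genes passed an adjusted p of 0.05 (edgeR quasi-likelihood test over all 32998 features tested, Benjamini-Hochberg) in each treatment. The background was 68.2% of all features called in morphine mice and 67.4% in vehicle mice, so 4 of 6 is near the background. The libraries of the tissues did not overlap for 4 of 6 genes in morphine mice (61.8% of features with 100 or more counts) and 3 of 6 in vehicle mice (56.9%). In 1 direction the background of calls was 33.4% higher in TG and 34.9% lower in TG in morphine mice, and 32.9% higher and 34.5% lower in vehicle mice.

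Grm5 encodes mGlu5, the group I receptor that raises intracellular calcium through Gq. It had 2.69, 3.13, 3.49, 3.11 and 3.50 CPM in the TG libraries of morphine mice, against 500, 431, 415, 408 and 423 CPM in their NAc libraries. In vehicle mice Grm5 had 2.42, 2.62, 2.98, 2.80 and 3.28 CPM in TG libraries, against 440, 316, 401, 426 and 578 CPM in NAc libraries. Every NAc library was far above every TG library. The fitted Grm5 level was 137-fold lower in TG in morphine mice (log2 fold change -7.10 ± 0.156 SE, adjusted p = 1.46e-17 by edgeR) and 153-fold lower in vehicle mice (-7.26 ± 0.157, adjusted p = 1.32e-17).

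Genes of the other tissue were also counted at a trace level in each library, which bears on the low TG values. The CPM of 28 genes at least 200 times higher in NAc, as a share of their NAc vehicle mean, had a median of 0.413% ± 0.0744 in TG libraries of morphine mice and 0.309% ± 0.0754 in those of vehicle mice (SD, n = 5 each; exact permutation test, 2-sided, p = 0.0635). The choice of genes, made on the vehicle libraries, holds each one's vehicle TG mean to at most 1 part in 200 of its NAc mean, so the size of the share partly restates that choice and the difference between treatments is not independent of it. That share times the NAc level of Grm5 came to 56.0% of the Grm5 CPM measured in morphine TG and 47.3% of that in vehicle TG. For Grm3 the product came to 15.7% and 14.6% of the measured TG levels in morphine and vehicle mice, and for the other 4 genes to 1.12% or less in either TG group. The part of such RNA in the low TG levels was not tested.

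Grm3 encodes mGlu3, a group II receptor of neurons and astrocytes. Grm3 had 1.77, 1.98, 2.37, 1.62 and 1.47 CPM in TG libraries of morphine mice, against 63.7, 57.9, 63.3, 59.3 and 63.9 CPM in their NAc libraries. In vehicle mice it had 1.38, 1.18, 1.63, 1.49 and 1.75 CPM in TG libraries, against 70.9, 47.8, 73.4, 71.0 and 87.5 CPM in NAc libraries. The tissues were far apart in every library, and the vehicle NAc libraries spread more widely than the morphine ones. The fitted Grm3 level was 33.4-fold lower in TG in morphine mice (log2 fold change -5.06 ± 0.16 SE, adjusted p = 2.35e-15 by edgeR) and 47.3-fold lower in vehicle mice (-5.56 ± 0.164, adjusted p = 9.5e-16).

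Grm2 encodes mGlu2, the group II receptor best known as a presynaptic brake on glutamate release. Grm2 had 2.26, 1.98, 2.08, 2.12 and 2.07 CPM in TG libraries of morphine mice, against 4.10, 4.38, 13.8, 5.11 and 2.80 CPM in their NAc libraries. In vehicle mice it had 1.91, 1.78, 2.54, 2.76 and 2.16 CPM in TG libraries, against 3.68, 5.59, 10.2, 7.59 and 1.52 CPM in NAc libraries. The tissues did not overlap in morphine mice but did in vehicle mice, where the NAc replicate 5 library was below every TG library. The fitted Grm2 level was 2.87-fold lower in TG in morphine mice (log2 fold change -1.52 ± 0.427 SE, adjusted p = 0.00407 by edgeR) and 2.56-fold lower in vehicle mice (-1.36 ± 0.425, adjusted p = 0.00889). Without NAc morphine replicate 3, the library with 13.8 CPM, the log2 fold change in morphine mice was -0.96 and still passed the test.

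**Figure D2:**
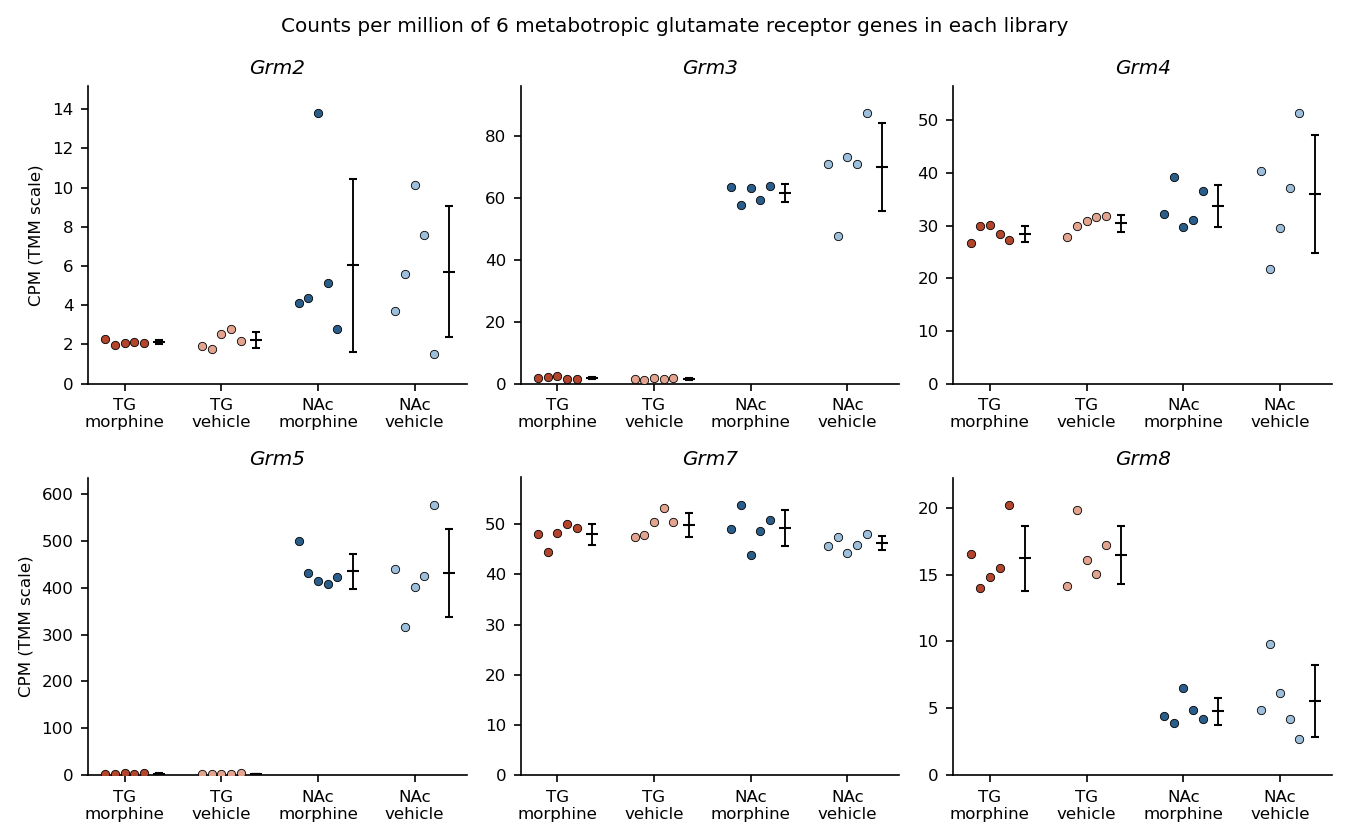
CPM of each gene in each library, in 4 groups of 5 libraries (points, in replicate order); the bar beside each group is the mean with its SD, and each panel has its own linear axis from 0. Grm5 and Grm3 stand near 0 in TG, Grm8 stands higher in TG than in NAc, and the vehicle NAc libraries spread more than the morphine NAc libraries for Grm3, Grm4, Grm5 and Grm8.

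Grm8, a group III gene, was the only one of the 6 to pass the test as higher in TG. It had 16.5, 14.02, 14.8, 15.5 and 20.2 CPM in TG libraries of morphine mice, against 4.40, 3.93, 6.48, 4.87 and 4.23 CPM in their NAc libraries. In vehicle mice Grm8 had 14.1, 19.8, 16.1, 15.0 and 17.2 CPM in TG libraries, against 4.85, 9.80, 6.15, 4.19 and 2.68 CPM in NAc libraries. Every TG library was above every NAc library. The fitted Grm8 level was 3.39-fold higher in TG in morphine mice (log2 fold change 1.76 ± 0.247 SE, adjusted p = 4.14e-06 by edgeR) and 2.98-fold higher in vehicle mice (1.57 ± 0.246, adjusted p = 1.53e-05).

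Grm4 and Grm7 encode the group III receptors mGlu4 and mGlu7; mGlu7 sits in the release zone of presynaptic endings and needs high glutamate to be activated. Grm4 had 26.6, 29.9, 30.1, 28.5 and 27.3 CPM in TG libraries of morphine mice, against 32.3, 39.2, 29.7, 31.1 and 36.6 CPM in their NAc libraries. In vehicle mice it had 27.8, 30.01, 30.8, 31.7 and 31.9 CPM in TG libraries, against 40.4, 21.8, 29.6, 37.1 and 51.4 CPM in NAc libraries. The tissues overlapped in both treatments. The log2 fold change of Grm4 was -0.25 ± 0.153 SE in morphine mice (adjusted p = 0.163 by edgeR) and -0.24 ± 0.153 in vehicle mice (adjusted p = 0.169). With the mouse as a replicate block, which uses that both tissues came from 1 animal, Grm4 was called lower in TG in morphine mice (-0.24, adjusted p = 0.0337).

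Grm7 had 48.1, 44.5, 48.3, 49.99 and 49.2 CPM in TG libraries of morphine mice, against 49.1, 53.9, 43.9, 48.6 and 50.8 CPM in their NAc libraries. In vehicle mice it had 47.5, 47.8, 50.4, 53.2 and 50.5 CPM in TG libraries, against 45.7, 47.4, 44.2, 45.9 and 47.98 CPM in NAc libraries. The ranges overlapped in both treatments, and the log2 fold change was -0.04 ± 0.048 SE in morphine mice (adjusted p = 0.507 by edgeR) and 0.11 ± 0.048 in vehicle mice (adjusted p = 0.0526). The sign of the vehicle value depended on the scaling, since dividing by library size alone gave -0.05 and moved the median of all features to -0.21, against -0.06 with TMM factors. Relative to that median the Grm7 difference was 0.16 with library size alone and 0.17 with TMM factors. Without NAc vehicle replicates 2 and 5, left out together after the data were seen, all 6 genes were called in vehicle mice, with Grm4 at -0.23 (adjusted p = 0.0484) and Grm7 at 0.14 (adjusted p = 0.0387).

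The comparison the study was built for is morphine against vehicle. None of the 6 genes passed the threshold in TG, in NAc or in the test of whether the effect differed between the tissues, and the morphine and vehicle libraries overlapped for every gene in both tissues. Groups that did not overlap were seen for 2.54% of features with 100 or more counts in TG and 1.71% in NAc. The background of calls was 0.18% of 29394 features called in TG, 0% of 29910 in NAc and 0.0394% of 32998 for the difference between tissues. In NAc, where edgeR called 0 features, 1709 had an unadjusted p under 0.05, and DESeq2 called 259 and limma voom 2; of the 6 genes none passed by either tool in any of the 3 comparisons.

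In TG the intervals of the 6 genes were narrow for the abundant ones. Grm4 averaged 28.5 ± 1.55 CPM in TG of morphine mice and 30.4 ± 1.64 CPM in TG of vehicle mice (SD, n = 5 each), a log2 fold change of -0.10 with a 95% interval of -0.20 to 0.002 (adjusted p = 0.515 by edgeR). Grm7 averaged 48.02 ± 2.12 CPM in morphine TG and 49.9 ± 2.36 CPM in vehicle TG, with an interval of -0.14 to 0.02 (adjusted p = 0.658). As folds the intervals ran from 0.870 to 1.00 for Grm4 and from 0.908 to 1.02 for Grm7, so larger changes of these messages were outside them. Grm8 averaged 16.2 ± 2.43 CPM in morphine TG and 16.5 ± 2.20 CPM in vehicle TG, with an interval of -0.29 to 0.24 (adjusted p = 0.971). The low genes were less certain: the interval was -0.38 to 0.20 for Grm2 (adjusted p = 0.891) and -0.07 to 0.42 for Grm5 (adjusted p = 0.659). Grm3 had the largest TG difference of the 6, at 1.84 ± 0.35 CPM in morphine TG and 1.48 ± 0.22 CPM in vehicle TG (SD, n = 5 each; log2 fold change 0.31, interval -0.04 to 0.66, adjusted p = 0.569). Less the product of NAc level and NAc-high share given above, Grm3 averaged 1.55 ± 0.343 CPM in morphine TG and 1.27 ± 0.199 CPM in vehicle TG, and Grm5 averaged 1.40 ± 0.189 CPM in morphine TG and 1.49 ± 0.264 CPM in vehicle TG (SD, n = 5 each). The sign of the Grm5 difference turned round with that subtraction. The subtracted share was larger in morphine TG and its genes were chosen on the vehicle libraries, so the turn is not independent of that choice. Neither gene passed the test without the subtraction.

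In NAc the intervals were wider than in TG for every gene except Grm3. Grm7 averaged 49.3 ± 3.64 CPM in NAc of morphine mice and 46.2 ± 1.48 CPM in NAc of vehicle mice (SD, n = 5 each), with a log2 interval of -0.03 to 0.21 (adjusted p = 0.958 by edgeR). Grm5 averaged 436 ± 37.2 CPM in morphine NAc and 432 ± 94.5 CPM in vehicle NAc, with an interval of -0.30 to 0.32 (adjusted p = 1). Grm3 averaged 61.6 ± 2.81 CPM in morphine NAc and 70.1 ± 14.3 CPM in vehicle NAc, with an interval of -0.48 to 0.10 (adjusted p = 0.976). As folds these intervals ran from 0.978 to 1.16 for Grm7, from 0.813 to 1.25 for Grm5 and from 0.717 to 1.07 for Grm3. Grm4 averaged 33.8 ± 3.99 CPM in morphine NAc and 36.05 ± 11.2 CPM in vehicle NAc, with an interval of -0.54 to 0.35 (adjusted p = 0.998). Grm8, at 4.78 ± 1.008 CPM in morphine NAc and 5.54 ± 2.69 CPM in vehicle NAc, had an interval of -0.90 to 0.48 (adjusted p = 0.998). Grm2 was the least certain, at 6.04 ± 4.42 CPM in morphine NAc and 5.70 ± 3.35 CPM in vehicle NAc with an interval of -1.14 to 1.30 (adjusted p = 0.999), and its log2 fold change of 0.08 became -0.48 without morphine replicate 3.

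The TG effect minus the NAc effect was largest for Grm3, at 0.50 ± 0.204 SE on the log2 scale (95% interval 0.07 to 0.93, adjusted p = 0.664 by edgeR), and for Grm7 it was -0.15 ± 0.068 (interval -0.29 to -0.004, adjusted p = 0.723). Neither interval holds 0, but both genes failed the correction over all features. For the other 4 genes the interval held 0 and the adjusted p was 0.974 or more.

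**Figure D3:**
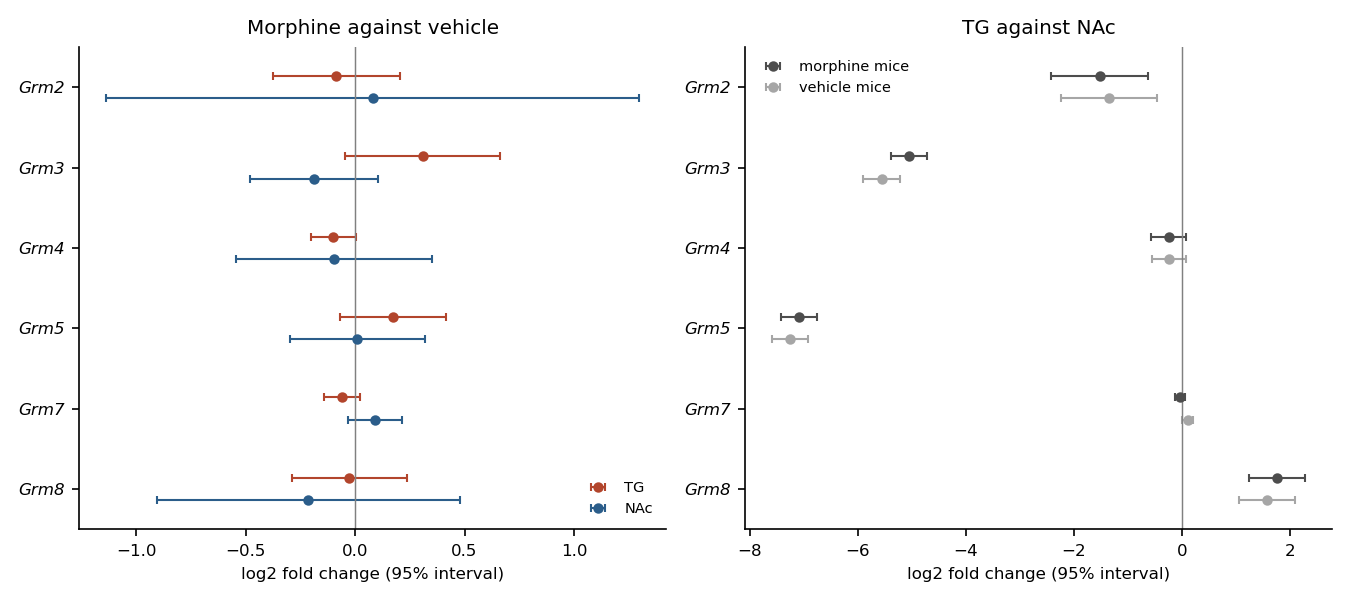
Log2 fold changes with 95% intervals from edgeR, morphine against vehicle in each tissue (left) and TG against NAc in each treatment (right); the 2 panels have different scales. All 12 morphine intervals on the left cross 0, and on the right Grm5, Grm3 and Grm2 lie below 0 and Grm8 above it.

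Within NAc the levels of most receptors spread more among vehicle than among morphine mice, and Grm5 ran most closely with the medium spiny neuron markers. Vehicle replicate 2, with 1628 CPM of medium spiny markers, had the lowest Grm3, Grm4 and Grm5 and the highest Grm8 of the 10 NAc libraries. Vehicle replicate 5, with 5599 CPM, had the highest Grm3, Grm4 and Grm5 and the lowest Grm2 and Grm8. Over the 10 NAc libraries the log2 CPM of Grm5 followed the log2 sum of the medium spiny markers with Pearson r = 0.939 (permutation p = 0.00054, adjusted p = 0.0065) and Spearman rho = 0.83 (permutation p = 0.0046, adjusted p = 0.056); without replicates 2 and 5 of the vehicle group r was 0.681. Grm4 followed it with r = 0.854 (permutation p = 0.005, adjusted p = 0.02) and rho = 0.6 (permutation p = 0.073, adjusted p = 0.29), and r was 0.272 without those libraries. Grm8 ran the other way, with r = -0.862 (permutation p = 0.0044, adjusted p = 0.02) and rho = -0.467 (permutation p = 0.18, adjusted p = 0.36), and r was -0.26 without them. The Grm4 and Grm8 relations thus rest on those 2 libraries, and for Grm3 r even changed sign, from 0.723 (permutation p = 0.026, adjusted p = 0.062) over all 10 libraries to -0.475 without them.

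No relation with the log2 sum of 5 cortical projection neuron markers passed the adjustment. Grm2 had the highest, with r = 0.717 (permutation p = 0.018, adjusted p = 0.055) and rho = 0.697 (permutation p = 0.03, adjusted p = 0.18), and r was 0.888 without vehicle replicates 2 and 5. Without those libraries r with the cortical sum was -0.694 for Grm7, -0.689 for Grm4 and 0.679 for Grm8, against -0.371, -0.122 and 0.084 over all 10. The highest Grm2 levels, 13.8 CPM in morphine replicate 3 and 10.2 CPM in vehicle replicate 3, were in the libraries with the highest cortical sums, 861 and 862 CPM. Grm7 and the medium spiny sum had r = 0.167 (permutation p = 0.65, adjusted p = 0.89). These were 12 relations, 6 genes with 2 marker sums, computed after the values had been seen and adjusted together; the samples share library depth and normalization. Within treatment, as deviations from each treatment's mean, r was 0.957 for Grm5 with medium spiny markers, and with cortical markers 0.733 for Grm2 and -0.639 for Grm7. A group of 5 libraries is too small for an r of its own.

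**Figure D4:**
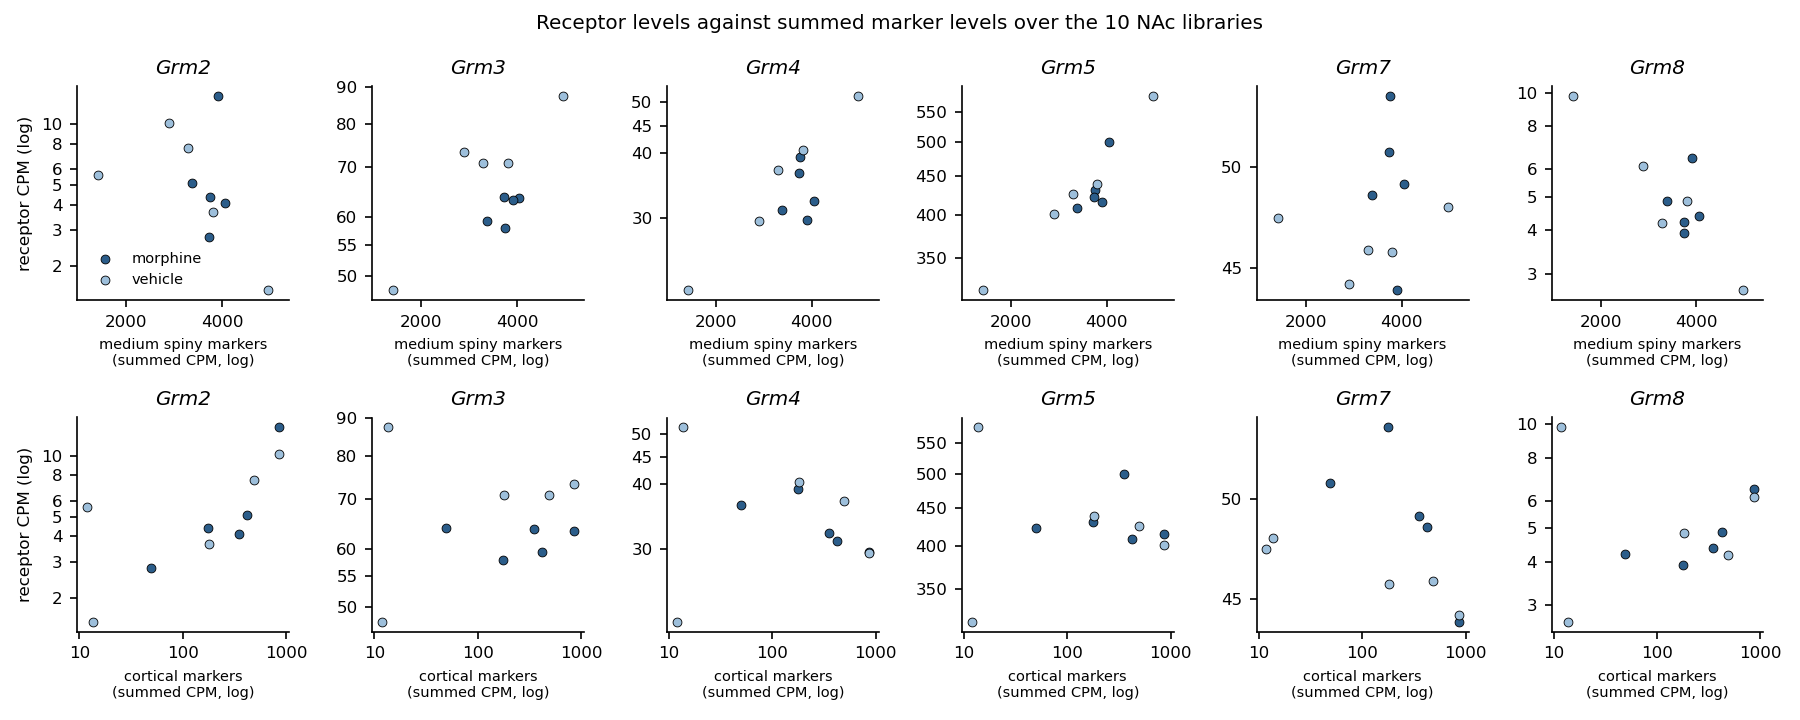
CPM of each gene (log axis) against the summed CPM of 8 medium spiny neuron markers (top row) and 5 cortical projection neuron markers (bottom row, log axes) over the 10 NAc libraries, morphine in dark and vehicle in light blue. Grm5 runs along the medium spiny sum (r = 0.939), and Grm2 is highest in the libraries with the highest cortical sums. Vehicle replicate 2, with the lowest cortical sum (11.8 CPM), had 5.59 CPM of Grm2.

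The genes whose NAc levels were most alike each receptor's, over 10 libraries as deviations from the treatment means, were Dctn2, Hk1 and Efhd2 for Grm2 (r of 0.992, 0.987 and 0.986). They were Tmod1, Pde2a and Mfsd8 for Grm3 (0.99, 0.979 and 0.979, but Spearman rho of only 0.661, 0.588 and 0.661), Sowaha, Sptb and Atp6v0a2 for Grm4 (0.986, 0.982 and 0.975), Gm30466, Id4 and Angel2 for Grm5 (0.988, 0.986 and 0.979), and Tmem196, Chp1 and Ralb for Grm8 (0.98, 0.975 and 0.97). Grm7 had the loosest such neighbours by r, Isg20l2, 4933434E20Rik and Prkg2 (0.93, 0.918 and 0.917). For the genes named beside receptors other than Grm3, rho was 0.782 to 0.988. In TG the nearest were Kctd3 for Grm4 (r = 0.95, rho = 0.952), Hpcal1 for Grm7 (r = 0.972, rho = 0.964) and Afdn for Grm8 (r = 0.946, rho = 0.806). Between the receptors themselves in NAc, Grm4 and Grm8 ran most nearly opposite (r = -0.958, rho = -0.867). Grm3 and Grm5 ran together by r (r = 0.882, rho = 0.539), but by rank Grm4 and Grm5 were closer (r = 0.859, rho = 0.782). Vehicle replicates 2 and 5 were the lowest and highest NAc libraries for Grm3, Grm4 and Grm5. The most alike genes have the highest r picked from all genes compared (10127 in TG), and all these values are given as a description.

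Below the gene level, the share held by the leading transcript differed between the tissues for Grm7 and Grm4. Of the 20 transcripts of the 6 genes that could be tested in vehicle mice, 14 differed between TG and NAc, 5 higher and 9 lower in TG, against a background of 50.4% of all transcripts. For morphine against vehicle, 0 of 18 transcripts passed in TG (background 0.0587%) and 0 of 17 in NAc (background 0%). The share of a gene's counts held by its most abundant transcript was then compared in 12 exact permutation tests, whose smallest possible p is 0.0079. Those between TG and NAc treated the libraries as independent, although both tissues came from the same mice. A paired test of the shares was not made.

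Grm7, with gene totals alike in both tissues, differed in its transcripts. NM_177328.3 held 79.0% ± 0.959 of the Grm7 counts in TG and 54.1% ± 5.08 in NAc of vehicle mice (SD, n = 5 each; exact permutation p = 0.00794, adjusted p = 0.0476). Its own log2 fold change was 0.67 ± 0.065 SE (adjusted p = 7.13e-08 by edgeR). XR_001785078.1, whose XR prefix marks a predicted non-coding RNA in RefSeq, made up most of the rest in NAc, at 7.46% ± 1.44 in TG and 39.3% ± 5.47 in NAc of vehicle mice, and was lower in TG (log2 fold change -2.27 ± 0.177, adjusted p = 3.66e-09). In morphine mice the NM_177328.3 shares were 78.0% ± 2.24 in TG and 54.5% ± 3.48 in NAc, close to those of vehicle mice.

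For Grm4 the shares differed too, with a wide spread in NAc. NM_001291045.1, whose coding end is printed above, held 84.4% ± 6.33 of the Grm4 counts in TG and 17.9% ± 26.0 in NAc of vehicle mice (SD, n = 5 each; exact permutation p = 0.00794, adjusted p = 0.0476). In 4 of the 5 vehicle NAc libraries this share was at most 13.9%, and in replicate 1 it was 62.9%, still below the lowest TG share of 75.0%. The level of NM_001291045.1 itself did not pass between the tissues (log2 fold change 1.83 ± 1.16 SE, adjusted p = 0.209 by edgeR). XM_011246475.2 held 3.94% ± 5.77 in TG and 47.95% ± 26.9 in NAc of vehicle mice and was lower in TG (log2 fold change -3.76 ± 1.15, adjusted p = 0.0107 by edgeR). These 2 transcripts traded places within a group too, as in morphine TG, where NM_001291045.1 ranged from 47.8% to 92.4%. NM_001013385.2, with the other printed end, held 0.816% ± 0.62 in TG and 10.1% ± 1.72 in NAc of vehicle mice and was lower in TG (log2 fold change -3.84 ± 0.553, adjusted p = 1.16e-05 by edgeR). The counts are estimates that divide reads among overlapping models, and the part of that division in these shares was not tested.

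For Grm5 and Grm8 no share passed the threshold. The exon-containing Grm5 transcript NM_001143834.1 held 80.4% ± 2.62 of the counts in morphine NAc and 75.5% ± 6.39 in vehicle NAc (exact permutation p = 0.135, adjusted p = 0.405), against 9.44% ± 2.56 and 13.3% ± 5.30 for NM_001081414.2, which lacks the exon. The predicted transcript XM_011241643.2 held 10.2% ± 2.12 in morphine NAc and 11.2% ± 1.75 in vehicle NAc. Whether it has the exon was not examined. In TG the Grm5 shares of NM_001143834.1 ran from 37.9% to 74.5% in morphine mice and from near 0 to 90.9% in vehicle mice, on few counts per library. The 2 Grm8 ends were nearly even in vehicle TG, where NM_001311072.1 held 49.0% ± 9.62 and NM_008174.2 held 44.7% ± 12.5. In vehicle NAc NM_001311072.1 held less, at 35.3% ± 11.9 against 49.1% ± 6.496 for NM_008174.2. The NM_001311072.1 share did not pass between the tissues (exact permutation p = 0.0476, adjusted p = 0.19). No share differed between morphine and vehicle mice past the threshold, the smallest adjusted p being 0.405.

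**Figure D5:**
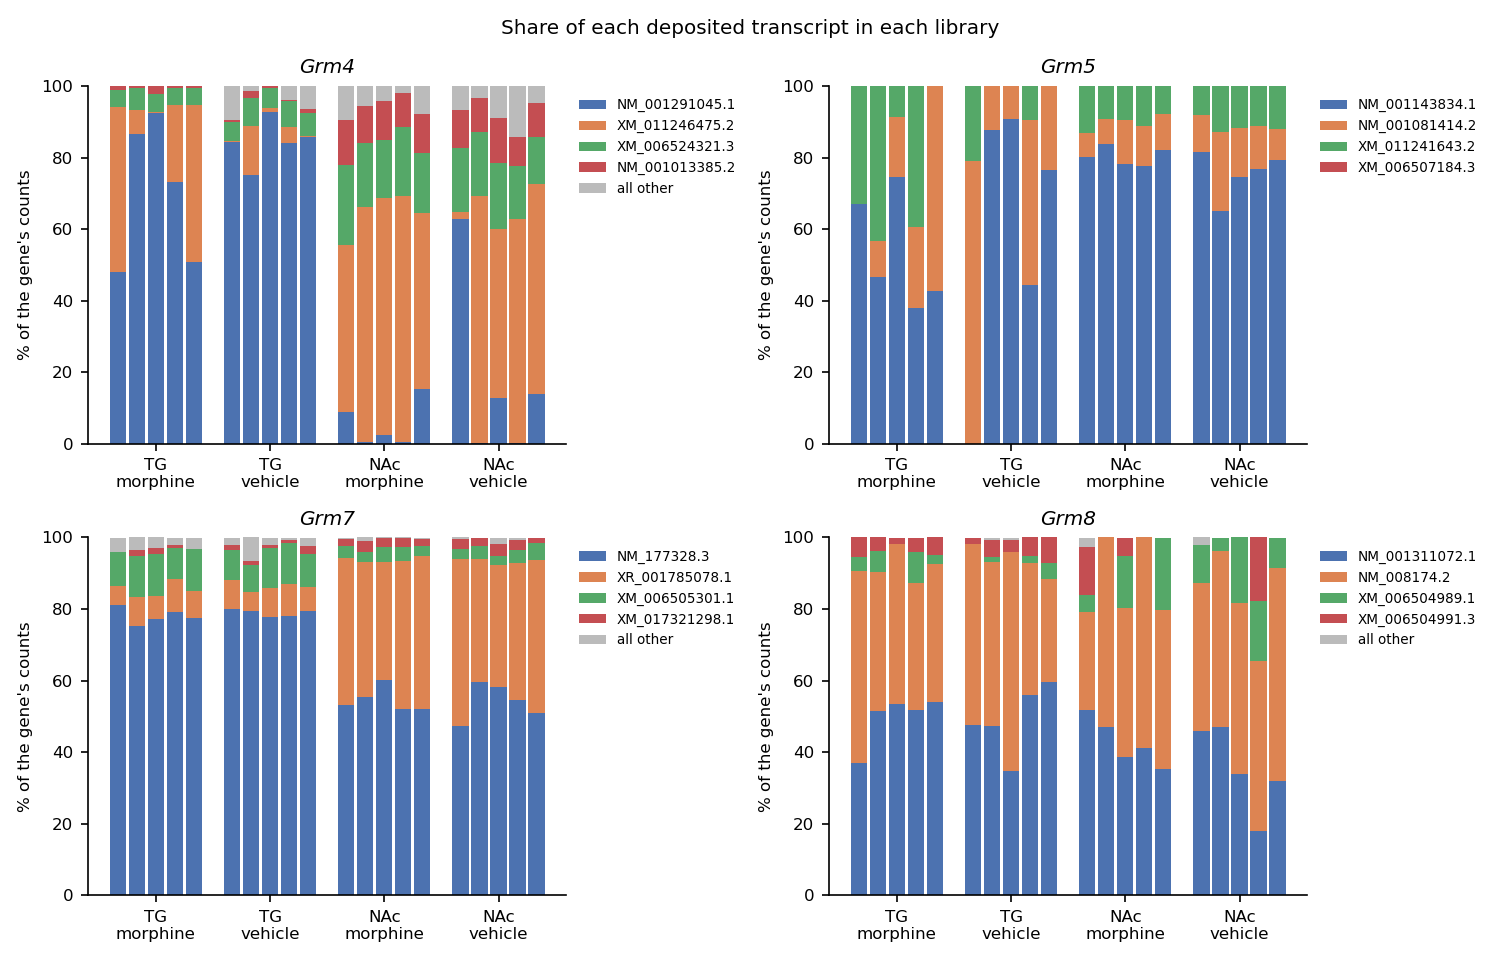
Percentage of each gene's counts on each deposited transcript, 1 bar per library in replicate order, for the 4 genes with several transcripts. NM_177328.3 of Grm7 falls to 54.1% in vehicle NAc against 79.0% in vehicle TG as XR_001785078.1 widens, and NM_001291045.1 of Grm4 falls to 17.9% in vehicle NAc against 84.4% in vehicle TG.

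Genes that act with these receptors were taken from 5 lists, 49 genes in all: scaffolds, Gq signalling, Gi/o subunits, glutamate transport and metabolism, and the enzymes that make and break down N-acetylaspartylglutamate (NAAG), a peptide that activates mGlu3. None of the 47 tested in TG or the 49 tested in NAc passed for morphine against vehicle, and none for the difference between tissues. Their median log2 fold change was 0.03 in TG and -0.03 in NAc, beside -0.002 and -0.007 over all features. The smallest p in TG was that of Glul, glutamine synthetase, at 618 ± 20.9 CPM in morphine TG and 566 ± 13.9 CPM in vehicle TG (log2 fold change 0.12 ± 0.025 SE, adjusted p = 0.119 by edgeR). For morphine against vehicle, only the gene with the smallest p of a list is named. By that rule the next in TG was Rgs4, a regulator of Gq and Gi signalling (-0.13 ± 0.038, adjusted p = 0.252 by edgeR). Then came Folh1, the NAAG-cleaving peptidase (0.20 ± 0.062, adjusted p = 0.289), and Frmpd4, a group I scaffold (0.16 ± 0.054, adjusted p = 0.357). In NAc the nearest were Plcb3 (-0.14 ± 0.051, adjusted p = 0.778) and Slc7a11, the cystine-glutamate exchanger (-0.27 ± 0.102, adjusted p = 0.813).

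Between tissues 42 of the 49 passed in morphine mice, 16 higher and 26 lower in TG. In vehicle mice 41 passed, 14 higher and 27 lower. These shares exceed the background of 68.2% and 67.4%, but the lists were chosen with earlier results of these data known. No test of the lists was made. Of 15 scaffold genes 4 were higher and 9 lower in TG of vehicle mice. Shank2 averaged 13.6 ± 1.31 CPM in TG against 168 ± 21.8 CPM in NAc, and Homer1, which links mGlu5 to intracellular calcium stores, averaged 24.4 ± 0.597 and 170 ± 59.8 CPM in those tissues (SD, n = 5 each). Shank3 was lower too (log2 fold change -3.27 ± 0.137 SE), and Homer3 was higher in TG (1.25 ± 0.059), all with adjusted p of 1.5e-10 or less by edgeR.

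Of 13 Gq genes 5 were higher and 7 lower in TG of vehicle mice. Plcb3, a phospholipase C, averaged 334 ± 21.03 CPM in TG, against 20.2 ± 1.17 CPM in NAc (SD, n = 5 each). Itpr1, the receptor that releases stored calcium, was lower in TG (-4.30 ± 0.258) and Gnaq, the Gq subunit itself, was higher (0.72 ± 0.037). Of the 5 Gi/o subunits Gnai3 (0.95 ± 0.051) and Gnai2 (0.48 ± 0.075) were higher and Gnao1 (-0.36 ± 0.069) and Gnai1 (-0.26 ± 0.048) were lower in TG.

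Of 12 genes of glutamate transport and metabolism 1 was higher and 8 lower in TG of vehicle mice. The astrocyte transporters Slc1a2 and Slc1a3 averaged 19.2 ± 4.83 and 33.3 ± 3.55 CPM in TG, against 2406 ± 379 and 606 ± 48.9 CPM in NAc (SD, n = 5 each). Slc1a1 (-3.13 ± 0.078) and Glul (-1.07 ± 0.041) were lower as well. Among the 4 NAAG genes, Rimkla, a NAAG synthetase, averaged 181 ± 5.55 CPM in TG, against 26.9 ± 5.19 CPM in NAc, and Folh1 averaged 44.0 ± 1.91 CPM in TG, against 8.16 ± 2.29 CPM in NAc, both higher in TG. The other synthetase gene, Rimklb, was listed at 0 in every TG library against 15.6 ± 7.07 CPM in vehicle NAc, which is at least 329-fold lower in TG with 3 counts per library as the floor.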

How the data were processed

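Polyadenylated RNA was sequenced from 20 libraries with a TruSeq Stranded mRNA kit for 101 cycles on an Illumina HiSeq instrument, per the labels' protocols. The authors deposited 1 table of expected counts, 107185 RefSeq transcripts in 20 libraries, made with kallisto 0.43 against GRCm38 per the submitters' processing notes; 56.7% of the values were not whole, and reads shared by transcripts were divided by estimation. The labels' protocol speaks of 1 read end and the design text of paired ends, and lanes are not tied to libraries.

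Transcripts were summed per gene by RefSeq accession (86631 matched, 80.8%, with 90.0% of all counts; the other 20554 stayed as features of their own) and rounded. Tests used edgeR 4.0.16 in R 4.3.3: filterByExpr, TMM factors, robust quasi-likelihood fit, 2-sided, Benjamini-Hochberg over all features, threshold 0.05. Each tissue was fitted by itself for morphine against vehicle, and all 20 libraries together for the rest; CPM use 1 set of TMM factors. Code was tested on simulated data. DESeq2 1.42.0, limma 3.58.1 voom and other settings were alternatives. Replicates differed beyond sampling noise (chi-square per gene 12.3 to 137). Same-numbered mice across tissues are the same animals, yet their deviations correlated only by -0.131 to 0.044. Named genes are the 6 receptors; up to 4 genes a list and comparison past the threshold, or 1 by smallest p; and 3 most alike genes per receptor with at least 5 CPM. Members and lists were chosen with earlier results of these data known. Values of some related genes are not reported here.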

Additional observations from a re-analysis of the deposited data

Results flagged for a closer look

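In 44 groups of 5 libraries (the 6 genes, 4 transcript shares and the trace of the other tissue, in 4 groups each), 5 held a library far from the other 4 by Dixon's test at the 95% level, where chance flags about 5% of groups. Grm2 reached 13.8 CPM in morphine NAc replicate 3, against 2.80 to 5.11 CPM in the other morphine NAc libraries, and that library also had the highest cortical marker sum of its group (861 CPM). Grm5 reached 500.3 CPM in morphine NAc replicate 1, the library with the highest medium spiny sum of its group (4073 CPM). The Grm4 share of NM_001291045.1 was 62.85% in vehicle NAc replicate 1, where the group's median was 12.9%. The Grm8 share of NM_001311072.1 was 36.9% in morphine TG replicate 1, where the group's median was 51.9%. The trace of TG-high genes (37 genes, chosen on the vehicle libraries) was 0.2596% in 1 morphine NAc library. This trace averaged 0.186% ± 0.0415 in morphine NAc and 0.365% ± 0.091 in vehicle NAc (SD, n = 5 each; exact permutation test, 2-sided, p = 0.0159). That difference between treatments is not independent of the choice of genes on the vehicle libraries. None of the 6 receptors had an effect of morphine that differed between the tissues past the threshold.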

How the results depend on the processing

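No receptor was called for morphine against vehicle, in either tissue or between them, under any alternative run: DESeq2, limma voom, library size alone, RLE size factors, no filter on low counts, named genes only, the fit on all 20 libraries, the blocks, and each library left out. Grm5, Grm3, Grm2 and Grm8 kept their direction and call between tissues under all of them. Counts over all features moved far more. In TG they were 933 with DESeq2, 122 with named genes only and 2 with the replicate number as a block; in NAc 259 with DESeq2, 73 in the fit on all 20 libraries, 3 with named genes only and 2 with limma voom. For the difference between tissues they were 240 with DESeq2, 8 with library size alone, 8 with no filter, 0 with limma voom (13 with edgeR), 1 with the mouse as a block and 31 without NAc vehicle replicates 2 and 5. Replicate numbers within a tissue pair no mice: deviations of same-numbered libraries correlated by 0.009 to 0.136 in TG and 0.049 to 0.502 in NAc, and the block changed no receptor's call there.

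Values near 0 changed sign. The Grm4 difference between tissue effects was 0.006 with DESeq2 and with RLE factors, Grm7 between tissues in vehicle mice was -0.05 with library size alone, and Grm2 without NAc vehicle replicates 2 and 5 was -0.241 in NAc and 0.157 for the difference between tissues. Grm4 between tissues was called with library size alone (-0.408 in morphine mice, adjusted p = 0.0228; -0.4 in vehicle mice, adjusted p = 0.0259) and in the fit on the 10 morphine libraries (-0.25, adjusted p = 0.0146; edgeR), and Grm7 in morphine mice with library size alone (-0.2, adjusted p = 0.00228), or in vehicle mice with DESeq2 (0.117, adjusted p = 0.035) and RLE factors (0.116, adjusted p = 0.042). With the longest model as length, 1 pair of neighbours overlapped in morphine TG.

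Leaving out 1 library at a time gave 21 to 77 features in TG and 6 to 33 for the difference between tissues, the 33 without NAc vehicle replicate 5. The Grm8 log2 fold change in TG ran from -0.117 to 0.054. In NAc it ran from -0.478 to 0.396 for Grm2, -0.232 to 0.069 for Grm4, -0.083 to 0.14 for Grm5 and -0.384 to 0.098 for Grm8. For the difference between tissues it ran from -0.479 to 0.396 for Grm2, -0.165 to 0.133 for Grm4 and -0.121 to 0.363 for Grm8. Grm4 was called in vehicle mice without NAc vehicle replicate 2 (-0.379, adjusted p = 0.0081), and Grm7 without NAc vehicle replicate 5 (0.123), TG vehicle replicate 1 (0.128) or TG vehicle replicate 2 (0.126). The number of transcript shares past the threshold was 0 to 2. It was 0 whenever a vehicle library was left out, which leaves 4 against 5 libraries. The adjusted p of the Grm4 and Grm7 shares between tissues was then 0.0635 or 0.0952 (exact permutation). The smallest possible p is larger with 4 against 5 libraries than with 5 against 5, so these runs could not show whether the calls rest on single libraries. The share differences between tissues stayed at 62.0 to 77.7 points for Grm4 and 23.2 to 26.3 points for Grm7. Share differences in percentage points ran from -21.1 to 1.59 for Grm5 and -3.04 to 3.70 for Grm8 in TG, and from -1.24 to 1.85 for Grm7 in NAc. The morphine excess of NAc-high genes in TG, which were chosen on the vehicle libraries, ran from 0.0866 to 0.1332 points. Its p was 0.0317 (exact permutation) without TG morphine replicate 1 or TG vehicle replicate 5. The cause of the other changes was not tested.

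Depth limits Grm2, Grm3 and Grm5 in TG, with fewer than 300 counts a library, and with them the Grm5 transcript shares there. Counts were also low in some NAc libraries, down to 161 for Grm8 and 91 for Grm2. The Grm8 transcript shares in NAc rest on such counts.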
